A study of Mus musculus with 3 samples.

Results

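Interferon-stimulated genes are the genes that cells switch on when an interferon binds its receptor, and 38 of them were followed in mouse spleens that carried islet grafts. The 38 were taken as a list of names, and a gene counted as detected where a probe with its name was well above background, by the scanner software's own flag, on at least 1 of 3 arrays. By that rule 37 of the 38 genes were detected, among 22851 gene names with a detected probe and 34796 gene names on the array. Oas1g was the exception, with 2 probes that were not well above background on any array. All 37 detected genes were above background on each of the 3 arrays, and no spot of theirs was saturated.

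Each array held RNA of the spleen of adult male C57BL/6J mice made diabetic with streptozotocin and given syngeneic islets, that is, islets of the same inbred strain. In the design text, all 3 groups received 25 islets in the spleen and 100 islets beneath the kidney capsule. Sample 1 was collected on day 0, immediately after grafting, Sample 2 on day 2, and Sample 3 on day 139, from mice whose kidney with its graft had been removed on day 100. The treatment field names the kidney graft for Sample 3 only. There was 1 array per day, the number of mice behind an array was not given in the sources used here, and no sample without a graft was among the arrays. Day, array and mice therefore cannot be told apart, and no p-value was computed.

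Type I interferons are secreted by many cells after their RNA and DNA sensors detect foreign or misplaced nucleic acid, and interferon gamma is secreted mainly by T cells and NK cells. The type I receptor signals through Stat2 and Irf9 to the interferon-stimulated response element of its target genes, while interferon gamma acts mainly through the gamma-activated site. The products block viral entry, translation and replication, attack vacuoles that hold microbes, and damp the signal again, and in the spleen many of them are made without infection. The members were read in 2 classes, 30 targets mainly of type I interferon, of which 29 were detected, and 6 guanylate-binding and immunity-related GTPases, which interferon gamma induces strongly. Irf1 and Socs1 respond to both and stood outside these classes.

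The 28 members that a RefSeq promoter table (GRCm38.p6) held were searched over the 250 bases before each start for 2 motifs. The response element was searched as GAAA, any 2 bases and GAAA, on either strand, and the gamma-activated site as TTC, any 3 bases and GAA, which reads the same on both strands. The 120 bases before the start are shown for some members of each class and for Irf1 and Socs1, 5′ to 3′ on the gene's strand. Every match of either motif is in capitals, with overlapping matches joined. The motifs do not tell the classes apart. Isg15, Ifit1 and Oas1a are type I targets, Gbp2 and Igtp are GTPases, and of the genes that answer to both interferons Socs1 has the response element core and Irf1 a gamma-activated site.
Isg15, chr4:156200819-156200938, minus strand: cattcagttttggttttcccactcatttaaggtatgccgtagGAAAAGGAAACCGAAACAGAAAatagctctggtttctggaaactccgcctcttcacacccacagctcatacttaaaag
Ifit1, chr19:34640769-34640888, plus strand: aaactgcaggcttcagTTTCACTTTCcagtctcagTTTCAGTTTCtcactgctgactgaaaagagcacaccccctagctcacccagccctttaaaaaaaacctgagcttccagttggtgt
Oas1a, chr5:120907526-120907645, minus strand: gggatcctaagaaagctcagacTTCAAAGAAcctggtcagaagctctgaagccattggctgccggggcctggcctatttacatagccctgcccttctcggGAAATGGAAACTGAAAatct
Socs1, chr16:10785537-10785656, minus strand: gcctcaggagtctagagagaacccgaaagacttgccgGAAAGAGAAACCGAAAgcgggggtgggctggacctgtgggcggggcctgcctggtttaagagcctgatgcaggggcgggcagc
Gbp2, chr3:142620543-142620662, plus strand: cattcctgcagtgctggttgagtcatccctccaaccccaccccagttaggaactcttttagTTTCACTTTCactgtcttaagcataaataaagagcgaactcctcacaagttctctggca
Igtp, chr11:58199436-58199555, plus strand: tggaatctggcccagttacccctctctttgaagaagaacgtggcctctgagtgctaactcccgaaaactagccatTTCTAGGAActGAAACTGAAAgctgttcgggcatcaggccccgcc
Irf1, chr11:53769894-53770013, plus strand: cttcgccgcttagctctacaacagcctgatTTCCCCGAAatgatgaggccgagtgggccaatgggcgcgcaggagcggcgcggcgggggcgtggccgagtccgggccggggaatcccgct
The response element core was in 14 of the 28 genes, against 3.46% of the 27025 genes in the table. All 4 GTPases in the table held it, as did 9 of the 22 type I targets. The gamma-activated site was in 6 of the 28 genes, or 21.4%, against 8.13% of all genes, and 11 of the 28 had neither. A match is a match of letters in this window, and the members are a list of known interferon targets. Oas2, Usp18, Parp14, Iigp1, Dhx58, Rtp4, Gbp6, Mx2, Zbp1 and Mx1 were not in the table.

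The members were read by 50 probes of 60 bases, of which 47 were detected. The first 30 bases are shown, as on the array and with its mm9 coordinates, for the member that passed the criteria, the member next to them, and the gene whose 2 probes lay farthest apart.
Oas2 probe, chr5:121180343-121180402, minus strand: ctggggactctgcagttggctgttcattta
Dhx58 probe, chr11:100556271-100556330, minus strand: ggaagatgaacgcaggagaattattatgcc
Gbp6 brighter probe, chr5:105700056-105700115, minus strand: gaaatgtcaagttcaaaagaatgaactgtg
Gbp6 dimmer probe, chr5:105702128-105702187, minus strand: ggctctcttaaatggattttctacagttct
The 2 Gbp6 probes lie at different places of the same gene, and their values are set side by side with the GTPases. Of the 50 probes, 48 had 1 spot per array. Igtp and Ifitm3 had 10 spots each, and the coefficient of variation over the spots of an array was between 1.87% and 8.68%.

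Signals are given after quantile normalization, in arbitrary units, for the brightest detected probe of a gene, and a log2 ratio compares the signals of 2 days. The scanner software's own error, carried to the log2 ratio, was 0.20 at the median of the members. It covers the reading of 1 array, not the spread between mice. Each log2 ratio was turned into a Z-score by dividing it by the spread (SD) that the same comparison showed among 1000 probes of the most similar brightness. Up-regulated probes had to reach a Z-score of 2 and also a ratio of 1.5, while down-regulated ones had to reach -2 and also 0.66 or below.

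The interferon-stimulated genes were lower on day 2 than on day 0 in 30 of 37 cases, by little, and by day 139 stood close to day 0. The median log2 ratio of day 2 over day 0 was -0.23 over the members and 0.01 over the 32108 detected probes. Of day 139 over day 0 it was -0.04 over the members and -0.02 over all probes, with 16 members higher and 21 lower. For day 139 over day 2 the members had a median of 0.14, with 23 higher and 14 lower, against -0.04 over all probes. The 3 comparisons share arrays, so that a low value on day 2 enters the first and the last with opposite signs.

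**Figure D1:**
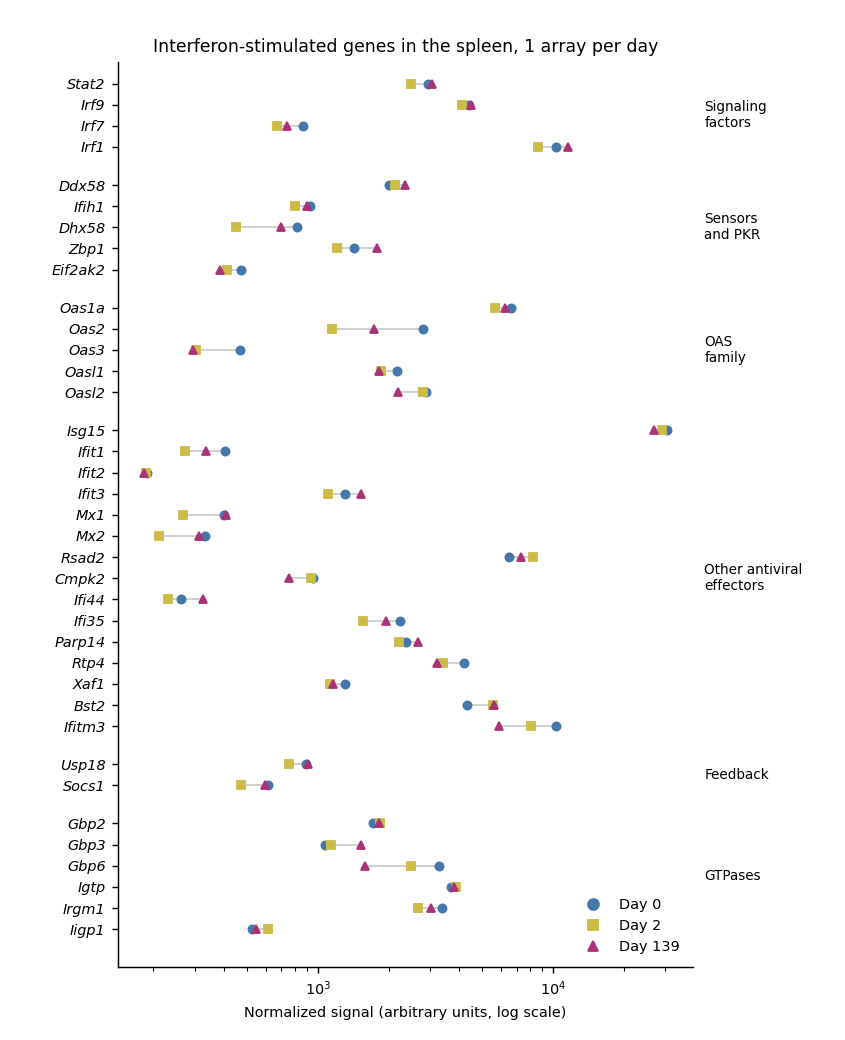
Normalized signal of the 37 detected interferon-stimulated genes on a log scale, with 1 point per array: circles for day 0, squares for day 2 and triangles for day 139, grouped by role. The square of day 2 is the lowest point for 20 genes, and the circle of day 0 is the highest for 21; distances between genes carry no meaning, since probes differ in brightness.

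The order of the 3 days shows the same. Day 0 held the highest signal for 21 of the 37 members, or 56.8%, against 32.2% of all detected probes. Day 2 held the lowest signal for 20 members, or 54.1%, against 29.8% of all detected probes, and the highest for 4. Among the type I targets, day 0 was highest for 18 of 29 and day 2 lowest for 17. Among the GTPases day 0 was lowest for 4 of 6. On day 2 over day 0, however, 3 of the 6 GTPases lay within the scanner error. By more than that error 2 were lower and 1, Iigp1, was higher, and the second Iigp1 probe was lower.

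Few members passed the criteria. On day 2 over day 0, 0 members were up-regulated, where 1.91% of the detected probes were, and 1 member, Oas2, was down-regulated, where 2.55% of the probes were. For day 139 over day 0, 0 members were called in either direction, against 2.52% of the probes up and 2.21% down. For day 139 over day 2, again 0 were called, against 2.39% up and 1.77% down. With 37 genes, these counts are near the background and are not a result about the members. By the ratio limits alone, 4 members passed in each comparison, 10.8% of them. The background was 20.5% of all detected probes for day 2 over day 0, 27.5% for day 139 over day 0 and 26.7% for day 139 over day 2. Among the 15097 detected probes with a mean signal in the members' range, 186 to 28792, it was 11.2%, 17.7% and 17.8%. The members' log2 ratios had an SD of 0.32, 0.33 and 0.31 in the 3 comparisons, where the SD of probes of like signal was 0.44, 0.58 and 0.60 at the median.

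The lean of the members on day 2 was a small shift of many genes rather than a large one of a few. On day 2 over day 0, 22 members were lower by more than the scanner error, 3 were higher by more than it and 12 lay within it. Of the probes of like signal, 48.2% were lower on day 2 and 24.5% lower by more than the error, against 81.1% and 59.5% of the members. In day 139 over day 0, 12 members were lower and 6 higher by more than the error, and 19 lay within it, and in day 139 over day 2, 15 were higher and 4 lower by more than it.

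**Figure D2:**
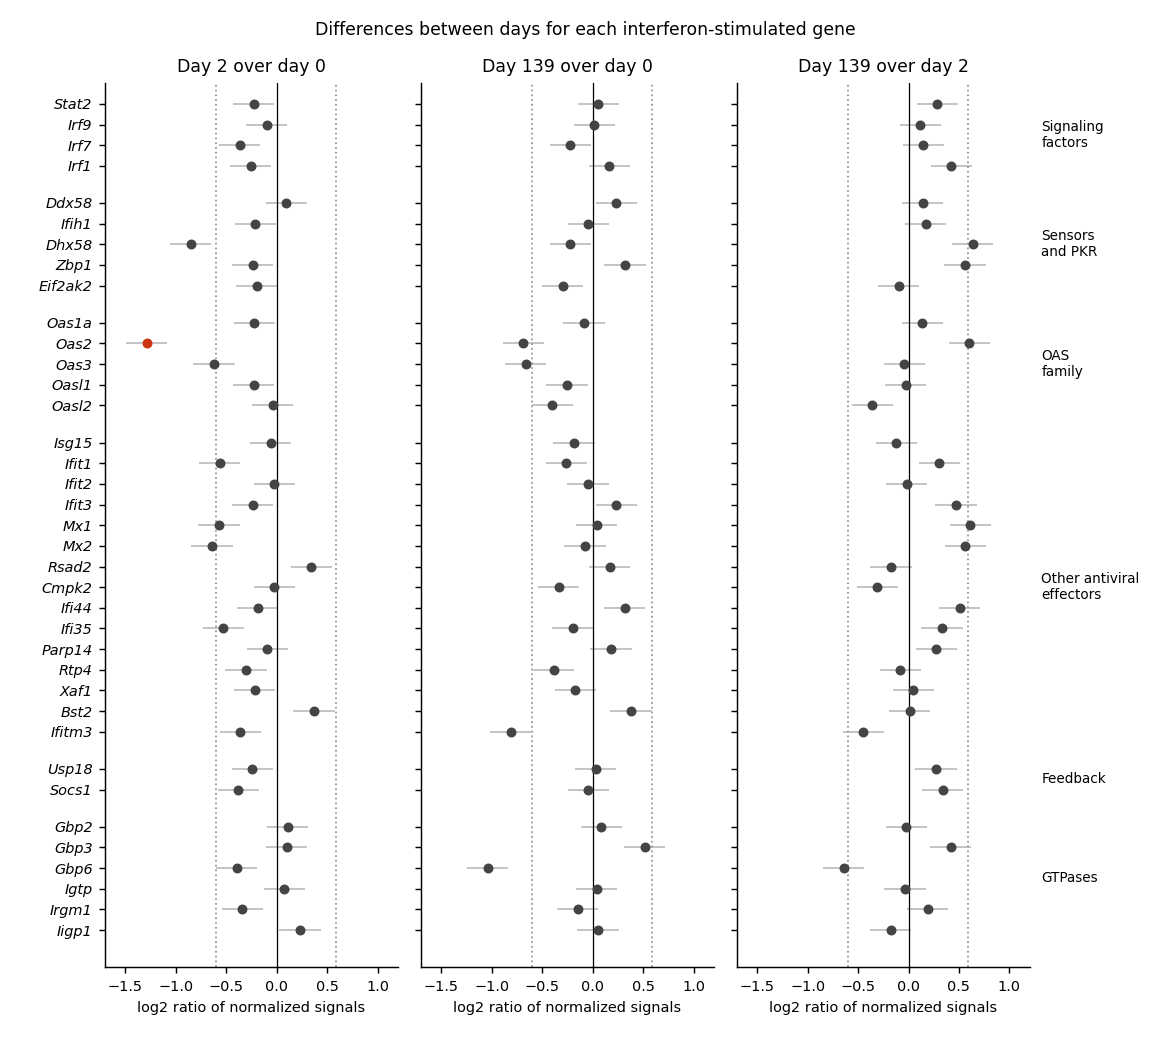
Log2 ratio of each interferon-stimulated gene between the days, with bars of 1 scanner error and dotted lines at ratios of 0.66 and 1.5; the red point, Oas2 at -1.29 on day 2 over day 0, is the 1 call. In the panel of day 2 over day 0, 30 of the 37 points lie left of 0, and in the panel of day 139 over day 0 the points lie on both sides, 21 left and 16 right.

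The signaling factors carry the interferon signal to the genes. Stat2, which the type I receptor activates, had signals of 2930 on day 0, 2502 on day 2 and 3050 on day 139. Irf9, which binds Stat2 and gives it its contact with DNA, had 4411, 4112 and 4459. Irf7, the factor that raises the output of interferon alpha genes, had 865, 670 and 742. All 3 had their lowest signal on day 2, and so did Irf1, an early target of interferon gamma, with 10292, 8616 and 11544. The log2 ratios of day 2 over day 0 of these 4 genes lay between -0.37 for Irf7 and -0.10 for Irf9, with a median of -0.24. Irf7 was also lower on day 139 than on day 0, at -0.22, and the other 3 were higher by 0.17 or less.

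The sensors detect RNA or DNA in the cytosol, and 4 of these 5 genes were lower on day 2 than on day 0. Dhx58, which encodes LGP2, a helper of the RNA sensors without signaling domains of its own, had signals of 815 on day 0, 451 on day 2 and 700 on day 139. It was low on day 2 alone. Its log2 ratio of -0.85 ± 0.20 (scanner error) for day 2 over day 0 came with a ratio of 0.553 and a Z-score of -1.92, just short of the criteria, and the ratio of day 139 over day 2 was 1.55 with a Z-score of 1.09. The brighter probe of Zbp1, a sensor of nucleic acid in the Z form, had 1432, 1212 and 1787. It was highest on day 139, with log2 ratios of -0.24 and 0.32 against day 0. The second Zbp1 probe was flat, with 544, 539 and 543, and the median over both probes gave -0.13 and 0.16. No direction is given for Zbp1 as a gene on day 139. Ddx58, which encodes the RNA sensor RIG-I, was the exception of the group on day 2. It had 2000, 2133 and 2349, lowest on day 0, with log2 ratios of 0.09 and 0.23. Ifih1, which encodes the RNA sensor MDA5, and Eif2ak2, the kinase PKR that halts translation, had log2 ratios of -0.21 and -0.20 on day 2 over day 0, and of -0.04 and -0.30 on day 139 over day 0.

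The oligoadenylate synthetases make short adenylate chains that switch on RNase L, which cuts RNA. All 5 detected members of the family were lower on day 2 than on day 0. Oas2 had signals of 2796 on day 0, 1145 on day 2 and 1735 on day 139. Before normalization its signals and scanner errors were 2903 ± 290.3, 1217 ± 122 and 1578 ± 158, so that day 2 was the lowest either way and day 139 lay between the others. The ratio of day 2 over day 0 was 0.409, a log2 ratio of -1.29 ± 0.20 (scanner error) with a Z-score of -3.24. With 1 SD over all probes as the spread, the Z-score was -1.92 and Oas2 was not called. Against day 0, day 139 had a log2 ratio of -0.69 and a Z-score of -1.25, and against day 2 of 0.60 and 1.07. Oas3 had 469, 305 and 296, high on day 0 alone, with log2 ratios of -0.62 and -0.66 against day 0. Oasl2, an Oas-like protein, had 2898, 2814 and 2194, low on day 139 alone, with a log2 ratio of -0.40 against day 0. Oas1a had -0.22 and -0.09, and Oasl1, known to hold back the translation of Irf7, -0.23 and -0.25. All 5 were also lower on day 139 than on day 0, with a median of -0.40. With another background correction (normexp), 4 of the 5 were lower and 1 was higher, with a median of -0.45. When the arrays were scaled to the spike-in controls instead, 3 of the 5 were lower and the median was -0.02. The probes of Oas2 and Oas3, with the largest differences of the family, were single, so that no further probe was at hand to set against them.

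The other antiviral effectors were 15 genes, of which 13 were lower on day 2 than on day 0, with a median of -0.22. Mx1 and Mx2 encode dynamin-like proteins that block viruses, and common laboratory strains carry defective alleles of Mx1. Mx1 had signals of 398 on day 0, 268 on day 2 and 409 on day 139, and Mx2 had 331, 212 and 314. Both were low on day 2 alone. Their log2 ratios of day 2 over day 0 were -0.57 and -0.64, with Z-scores of -1.02 and -1.37. Ifit1, whose product binds viral RNA that lacks the host's cap methylation, had 403, 272 and 336, also lowest on day 2, with -0.57 on day 2 over day 0. The related genes Ifit2 and Ifit3 had -0.02 and -0.24, and Ifi35 -0.53.

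Rsad2 and Bst2 were the 2 effectors that were higher on day 2. Rsad2 encodes viperin, which makes a chain-terminating nucleotide, and had 6493, 8225 and 7293. Bst2 encodes tetherin, which holds budding virus at the cell surface, and had 4309, 5568 and 5611. Rsad2 was highest on day 2, and Bst2 was lowest on day 0 with like signals on the later days. The log2 ratios of day 2 over day 0 were 0.34 and 0.37, and those of day 139 over day 0 were 0.17 and 0.38. Cmpk2, a nucleotide kinase whose gene neighbours Rsad2 on chromosome 12, had 954, 937 and 756, low on day 139 alone, with -0.03 and -0.34 against day 0.

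Ifitm3, which hinders the fusion of viruses with endosomes, had signals of 10332 on day 0, 8038 on day 2 and 5882 on day 139. It stepped down over the 3 days, with log2 ratios of -0.36 and -0.81 against day 0 and a Z-score of -1.39 on day 139. Its 10 spots per array had an SD between 0.03 and 0.09 on the log2 scale, which covers the array and not the mice, and with spike-in scaling its log2 ratio of day 139 over day 2 was -0.14 in place of -0.45. Ifi44, named after its induction by interferon, had 262, 230 and 327, highest on day 139, with -0.19 and 0.32 against day 0. Isg15, a ubiquitin-like protein that is attached to other proteins, had 30435, 29166 and 26774, with -0.06 and -0.18. A run of 35 of the 60 bases of its probe was also in a probe named Gm9706. No other member probe shared 25 bases or more with the probe of another gene. This search covered the probes of the array and not transcripts, so it cannot show that a member probe reads its gene alone. The second Isg15 probe, with 2474, 2000 and 2137, had -0.31 and -0.21. Parp14, Rtp4 and Xaf1 lay between -0.30 and -0.09 on day 2 over day 0 and between -0.39 and 0.18 on day 139 over day 0.

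The feedback inhibitors end the response. Usp18, which removes Isg15 from proteins and blocks the type I receptor, had 891 on day 0, 753 on day 2 and 909 on day 139. Socs1, which binds and inhibits the Jak kinases, had 617, 473 and 598. Both were low on day 2 alone, with log2 ratios of day 2 over day 0 of -0.24 and -0.38, and on day 139 over day 0 they had 0.03 and -0.04.

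The GTPases, which assemble on vacuoles that hold microbes, differed in their signs from the type I targets. On day 2 over day 0, 4 of the 6 were higher and 2 lower, with a median of 0.09. Of the 29 type I targets, 3 were higher and 26 lower, with a median of -0.23. By more than the scanner error, 1 GTPase, Iigp1, was higher, 2 were lower and 3 lay within it. The type I targets had 2 higher, 18 lower and 9 within it. Gbp6 was counted as lower by its brighter probe. On day 139 over day 0 the medians were 0.05 for the GTPases and -0.09 for the type I targets. Day 139 over day 2 had -0.03 and 0.14 in that order. The difference between the classes was not tested, since there was 1 array per day. Gbp2 had signals of 1713, 1847 and 1816, Iigp1 526, 617 and 546, and Igtp 3686, 3883 and 3790. By these probes the 3 were lowest on day 0 and highest on day 2, by 0.08 to 0.23 on the log2 scale. The second Iigp1 probe, with 212, 202 and 210, gave the reverse order for that gene, at -0.08 on day 2 over day 0. Gbp3 had 1069, 1144 and 1529, highest on day 139, with a log2 ratio of 0.52 over day 0. Irgm1, a regulator of the other immunity-related GTPases, had 3375, 2666 and 3043, lowest on day 2 with -0.34 over day 0.

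Gbp6 gave opposite answers from its 2 probes. The brighter probe had 3271 on day 0, 2485 on day 2 and 1590 on day 139, and the dimmer one had 111, 129 and 173. The brighter signal stepped down over the days and the dimmer one stepped up. For day 139 over day 0 the log2 ratios were -1.04 ± 0.20 and 0.65 ± 0.21 (scanner error), a gap of 1.69, and on day 139 over day 2 they were -0.64 and 0.42. The brighter probe's Z-score was -1.77 on day 139 over day 0. No direction is given for Gbp6 as a gene.

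**Figure D3:**
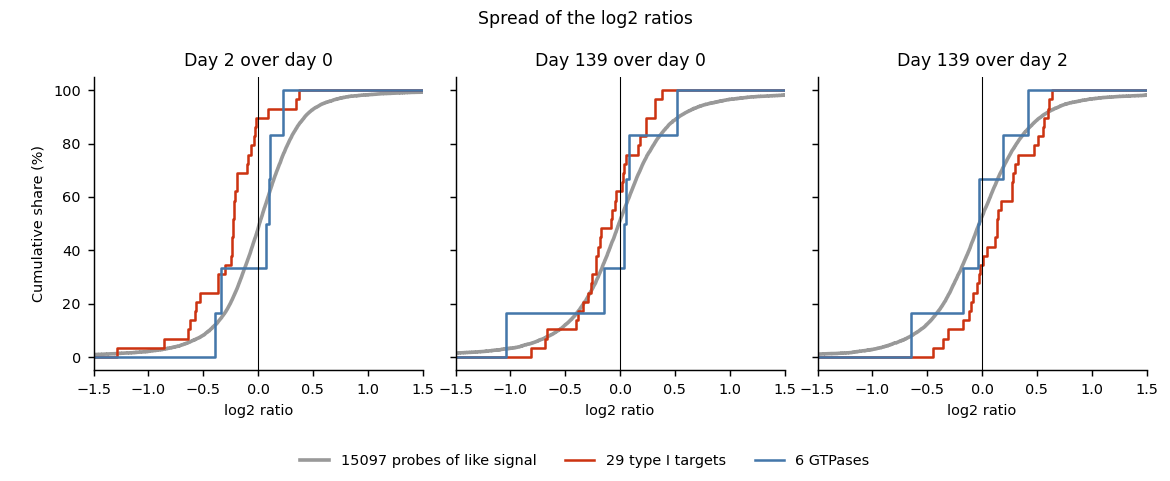
Cumulative share of log2 ratios up to each value for 29 type I targets (red), 6 GTPases (blue) and 15097 detected probes in the members' signal range (grey), in 3 panels for the 3 comparisons. On day 2 over day 0 the red line runs left of the grey one, with a median of -0.23 against 0.01, and the blue line crosses it; on day 139 over day 2 the red line runs right, with a median of 0.14 against -0.03.

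The other genes with 2 detected probes had probes that lay closer than those of Gbp6. Their widest gap was 0.66, for Xaf1 on day 139 over day 0, with -0.17 and 0.48. Over the 10 genes, the 2 probes differed by 0.24 at the median on day 2 over day 0, by 0.20 on day 139 over day 0 and by 0.23 on day 139 over day 2. They had the same sign in 7, 5 and 6 genes. Gaps of this size are like the scanner error and like the median lean of the members on day 2. Ddx58 and Xaf1, a gene that favours cell death, each had a dim second probe, with 88.4, 99.2 and 124 for Ddx58 and 51.8, 57.9 and 72.4 for Xaf1. These dim probes stepped up over the days, as the dim Gbp6 probe did. Of the 5 member probes with a mean signal under 200, 4 were higher on day 139 than on day 0, with a median of 0.48, where 46.3% of all dim detected probes were higher and their median was -0.06.

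**Figure D4:**
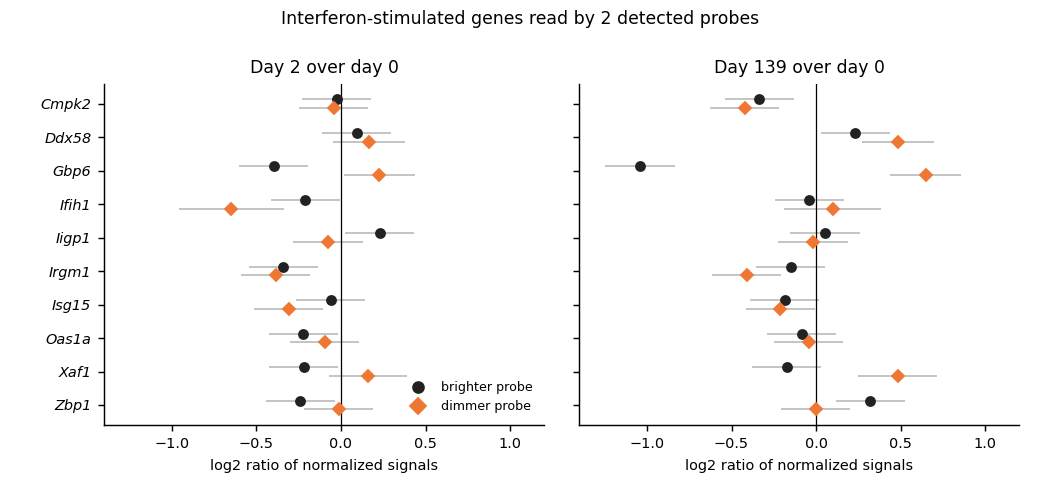
Log2 ratios of the brighter probe (black circles) and the dimmer probe (orange diamonds) of the 10 interferon-stimulated genes read by 2 detected probes, with bars of 1 scanner error, for day 2 over day 0 and day 139 over day 0. The Gbp6 probes stand apart on day 139, at -1.04 and 0.65, and the probes of Cmpk2 lie close together in both panels.

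The motifs in the promoters divided the members little on day 2. The 13 detected members with a response element core in the window had a median log2 ratio of day 2 over day 0 of -0.22, and the 14 without it had -0.20. The medians of day 139 over day 0 were 0.04 and -0.19. Of the 13 genes, 5 were higher on day 2 than on day 0, namely Bst2, Rsad2, Gbp2, Gbp3 and Igtp, and of the 14 without it 1 was, Ddx58.

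Among the interferon genes themselves, 8 of 21 listed had a detected probe, all dim. Ifna1, an interferon alpha, had 141 on day 0, 44.9 on day 2 and 50.1 on day 139. It was high on day 0 alone. It was the 1 ligand called, down-regulated on day 2 over day 0 with a log2 ratio of -1.65 and a Z-score of -2.51. Of all detected probes, 2.55% were down-regulated there, and 1 call among 8 genes is not a result about the ligands. On day 139 over day 0, Ifna1 had -1.49 and -1.94. Ifna11 had 189, 139 and 104, with -0.44 and -0.86 against day 0. Ifna2 was above background on day 2 alone, at 30.2, and Ifna12 had 24.7, 22.7 and, below background, 15.5. Ifng, the interferon gamma gene, had 148, 119 and 207, highest on day 139, with log2 ratios of -0.31 and 0.49 against day 0 and 0.80 against day 2. Ifnb1, the interferon beta gene, had a probe that was not detected. The interferon alpha genes are near-identical in sequence, so that these values are uncertain as to the gene.

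Of the receptors and their kinases, 8 of 9 listed were measured and 0 were called in any comparison. Between 1.77% and 2.55% of all detected probes were called in each direction of a comparison. Ifnar1 and Ifnar2, the chains of the type I receptor, had 759, 852 and 1012, and 2033, 2023 and 2267. Ifngr1 and Ifngr2, the chains of the interferon gamma receptor, had 8754, 6969 and 8734, and 2083, 2010 and 2087. Ifnar1 was highest on day 139, and Ifngr1 was low on day 2 alone. The kinases Jak1 and Tyk2 had log2 ratios of day 2 over day 0 of -0.23 and 0.18. The medians of this group were -0.03, 0.06 and 0.21 for day 2 over day 0, day 139 over day 0 and day 139 over day 2.

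The inducers of interferon, receptors and factors upstream of its genes, had 12 of 13 measured and 0 called. The shares of all detected probes were again between 1.77% and 2.55%. Myd88, the adaptor of most Toll-like receptors, had 2983, 1777 and 1633, high on day 0 alone, with -0.75 and -0.87 against day 0. Tbk1, a kinase that activates Irf3, had 350, 219 and 275, with log2 ratios of -0.68 and -0.35 against day 0, and the related kinase gene Ikbke had log2 ratios of 0.46 and 0.72. Tbk1 was lowest on day 2 and Ikbke lowest on day 0. Tlr3, a receptor for double-stranded RNA, had 36.9, 33.2 and 58.6. The group's medians were -0.14, 0.29 and 0.41 in the order of comparisons above.

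A further list of 42 interferon-stimulated genes outside the members, 38 of them measured, did not lean as the members did on day 2. The list holds further guanylate-binding and immunity-related GTPases as well as genes such as Ciita, Psmb8 and Tap1. It was not split into the 2 classes, so it is not a like-for-like set beside the members. On day 2, 17 genes of the further list were higher and 21 lower than on day 0, with a median of -0.01. Of these genes 2 were down-regulated, where 2.55% of the detected probes were. Ciita, the factor that switches on MHC class II genes, had 194 on day 0, 63.9 on day 2 and 278 on day 139. It was low on day 2, with a log2 ratio of -1.60 and a Z-score of -2.86 against day 0. On day 139 over day 2 it was up-regulated, at 2.12 and a Z-score of 3.32, where 2.39% of the detected probes were. Ifi204, a DNA sensor, had 8578, 4498 and 5179, high on day 0 alone, with -0.93 and a Z-score of -2.08 on day 2. Slfn1, a schlafen gene, and Tgtp1, a GTPase of the immunity-related family, had log2 ratios of -0.92 and -0.85 on day 2 over day 0, and both were highest on day 0. Gbp11, a guanylate-binding protein gene, had 530, 627 and 882, highest on day 139. By day 139 the list had 26 higher and 12 lower than on day 0, with a median of 0.26. In that comparison 0 were called, against 2.52% of the detected probes up and 2.21% down. With 38 genes, these counts of calls are near the background and are not a result about the list. Between day 2 and day 139 its median was 0.22.

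**Figure D5:**
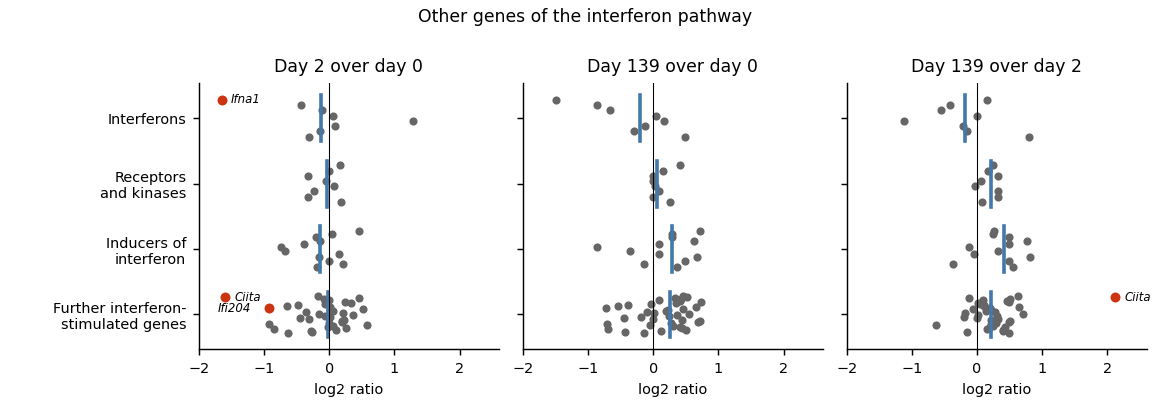
Log2 ratios of pathway genes outside the member list, 1 point per gene, with blue bars at each group's median and red points for genes past the Z-score and ratio criteria. The red points are Ifna1, Ciita and Ifi204 on day 2 over day 0 and Ciita on day 139 over day 2; the medians lie left of 0 in the first panel.

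The spleens also differed in the markers of their cells, all measured as summed signals in the order day 0, day 2, day 139. B cell markers, 8 of 8 measured, had 47164, 46770 and 87986, and T cell markers, 7 of 8, had 12289, 16544 and 22762. Neutrophil markers, 9 of 9, had 225892, 79099 and 90244, monocyte markers, 7 of 8, 134868, 99518 and 113923, and red pulp macrophage markers, 8 of 9, 103257, 75775 and 79223. The brightest markers carry a sum, and single markers went both ways: of the neutrophil markers 4 were higher and 5 lower on day 2 than on day 0, and 5 higher and 4 lower on day 139 than on day 0. NK cell markers, 8 of 8, had 17585, 14220 and 13445, and those of plasmacytoid dendritic cells, the main source of interferon alpha, 8 of 8, had 105745, 102706 and 113558. From day 2 to day 139 the NK cell sum fell, while 6 of the markers were higher and 2 lower. The red pulp macrophage sum rose between these days, while 3 of the markers were higher and 5 lower. Besides the 3 myeloid sums, those of B cells and plasmacytoid dendritic cells were lowest on day 2, by little. On day 2 over day 0, 5 B cell markers were higher and 3 lower, with a median log2 ratio of 0.10. Those of plasmacytoid dendritic cells had 4 higher and 4 lower, with a median of -0.02. Erythroid markers, 9 of 10, had 108588, 130509 and 78878, and islet beta cell markers, 4 of 6, had 61436, 96392 and 32025. All measured markers were above background on each array except 1 beta cell marker on day 139. In whole spleen, fewer cells of a type and less RNA per cell cannot be told apart, and the part of these shifts in the members' values was not tested.

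The direction on day 2 did not depend on the scaling, and that on day 139 did. With the arrays scaled to 6 spike-in controls, 30 of 37 members were again lower on day 2 than on day 0. For day 139 over day 0, 31 of 37 members were then higher, with a median of 0.31, and the median of all detected probes was 0.33. Relative to all probes the members had -0.02 under either scaling. A single factor per array shifts members and all probes alike, so that it cannot move this value by itself.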

How the data were processed

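Spleen RNA of 3 samples was labelled with Cy3 and hybridised to 1-colour Agilent 60-mer arrays. The authors deposited the intensity of each spot on a linear scale, background-subtracted and detrended by Feature Extraction (10.7.1.1 in the file headers, 9.5.1.1 in the submitters' processing notes), and a table of intensity values per probe. That table served as an alternative; for member probes its largest difference from the values used here was 0.0046 (log2). The labels and the study's methods name different RNA kits.

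Control and outlier-flagged spots were left out, spots averaged, and 55679 probes quantile normalized over the 3 arrays (Python 3.11.15, numpy 2.4.6), floored at 1 and taken to log2. Well above background were 54.4%, 53.8% and 50.4% of the probes on days 0, 2 and 139. The number of arrays limits the precision. Criteria followed the study's methods. Genes named were members past the criteria, the 5 largest and 5 smallest log2 ratios of each comparison, genes whose probes differed by over 1, up to 4 genes of each pathway list by size of ratio, interferon receptor genes, and further members where a role group was described. The members and lists were chosen with earlier results of these data known. Alternatives were the normexp method for the background (limma 3.58.1 under R 4.3.3, offset 50), arrays scaled to spike-in controls or to their 75th percentile, the deposited table, a higher floor, other detection filters, flagged spots kept, the median over a gene's probes, and other spreads for the Z-score. Exon annotation of the probes was not used here, and 1 further gene of the pathway is not reported.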

Additional observations from a re-analysis of the deposited data

How the results depend on the processing

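With normexp, both other scalings, the deposited table, flagged spots kept and the median over a gene's probes, 30 members were again lower on day 2 than on day 0; the other alternatives leave the detected members' ratios as they are. Of the values for the member groups, 137 moved by less than the scanner error or kept their count, and 10 moved. This tally, like that of the single genes below, includes the alternatives that leave the ratios as they are. The group tally also includes counts of 0 that stayed 0. Neither tally is therefore a measure of stability. Scaling to the spike-in controls set Sample 3 at a factor of 0.667 of Sample 1 and moved the median of all probes to 0.33 on day 139 over day 0 and to 0.38 on day 139 over day 2. The members' medians moved with it to 0.31 and 0.55, those of the type I targets to 0.27 and 0.55, and those of the GTPases to 0.42 and 0.37, and on day 139 over day 0 the medians of the sensors and the other effectors changed sign, to 0.34 and 0.30. It also gave 2 down-regulated members on day 2 over day 0, Oas2 and Dhx58, the latter with a Z-score of -2.06, where 2.85% of all detected probes were down-regulated. With the scaled median absolute deviation as spread, 2 members were down-regulated on day 2 over day 0, Oas2 and Dhx58, and 3 on day 139 over day 0, Ifitm3, Oas2 and the brighter Gbp6 probe, whose second probe was higher there. That spread is narrower, and 4.87% and 5.41% of all detected probes were down-regulated with it. With 1 SD over all probes, 0 were down-regulated on day 2 over day 0, where Oas2 had a Z-score of -1.92. Of the single genes' values, 38 moved and 421 did not, 34 of the 38 under the spike-in scaling and 4, all of Gbp6 or Zbp1, with the median over a gene's probes. Why the spike-in controls differed between arrays was not tested.

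No paired analysis was possible because each day had 1 array, and for the same reason leaving out a replicate was not run. The 3 arrays limit every difference to these arrays, the scanner error leaves out the spread between mice, and differences near 0.20 on the log2 scale are within the reading of single spots.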
